A study of Mus musculus with 6 samples.

Results

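The genes described here are 10 markers of mural cells, the cells that wrap blood vessels, chosen by gene name from the 55291 genes of the table. They fall into 6 contractile genes of smooth muscle (Acta2, Tagln, Myh11, Cnn1, Actg2 and Myocd) and 4 genes of pericytes (Rgs5, Cspg4, Notch3 and Mcam). To compare tight skin (TSK) with wild-type (WT) skin, RNA of the shaved back skin was sequenced as 1 bulk library per mouse, with 3 mice of each genotype. TSK mice are heterozygous for an allele of Fbn1 in which a run of exons is duplicated. Fbn1 encodes fibrillin 1, a protein of microfibrils, and every cell of a TSK mouse carries the allele, which WT mice lack. All mice were of the C57BL/6 strain, with the TSK allele kept by backcrossing. The sample labels give an age of 6 to 8 weeks for both groups and describe the mice as female, whereas the methods of the study describe males that were littermates across the genotypes and 8 weeks old. The Y-linked gene Ddx3y was found at 56.7 to 72.8 CPM (counts scaled to a common library total) over the 6 libraries. The labels give no treatment, and each library held whole skin with all of its cell types. Where the values of 3 libraries are listed, they stand in the order of mouse 1, 2 and 3.

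In the wall of arteries and veins, smooth muscle cells contract through actin, myosin and the proteins that bind them. Serum response factor (SRF) and its cofactor myocardin switch on the genes for these proteins through CArG boxes, short A and T rich stretches near the genes. Pericytes lie along capillaries inside the basement membrane of the endothelium and hold less of the contractile apparatus. In skin, contractile genes are also used by the arrector pili muscles of hair follicles, by the dermal sheath and by myofibroblasts, so none of the 10 genes belongs to vessels alone. In bulk skin, more cells of a type and more RNA per cell cannot be told apart.

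Library totals ranged from 17561453 to 19219814 counts and overlapped between the groups. Fbn1, the mutated gene, was called higher in TSK skin, at 1943 ± 377 against 272 ± 14.2 CPM (SD, n = 3; log2 fold change 2.54; adjusted p = 0.00327 in edgeR). Genes of adult skeletal muscle summed to 169798 to 247641 CPM in WT and 146685 to 167804 CPM in TSK, and fibroblast genes to 6467 to 9780 and 20925 to 48169 CPM. The part of either tissue in the levels of the 10 genes was not tested. The skin label was checked with keratinocyte genes, which summed to 2991 to 5912 CPM in WT and 3450 to 5920 CPM in TSK.

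One of the 10 genes passed the test between genotypes. Myh11, the heavy chain of smooth muscle myosin, rose in TSK skin, and none of the other 9 had an adjusted p below 0.05. The percentage of all 19971 tested genes that passed was 3.39% in either direction, 2.71% higher and 0.681% lower in TSK. With TMM scaling, which sets the libraries to a common level over most genes, all 10 genes had a positive log2 fold change (TSK minus WT), as did 47% of all tested genes. This did not hold when the libraries were scaled to endothelial genes, where 5 of the 10 were negative. The median was 0.90 for the 6 contractile genes (range 0.34 to 1.68), 0.55 for the 4 pericyte genes (0.47 to 0.60) and -0.03 for all tested genes. The difference between the contractile and the pericyte median was not tested. All 10 genes passed the filter on low counts. At an unadjusted p below 0.05, 4 contractile and 3 pericyte genes were higher in TSK, against a background of 12.1% of tested genes. At the stricter thresholds of the study, an adjusted p below 0.01 and a fold above 2.5, 0 of the 10 genes passed in edgeR's quasi-likelihood test, where 0.29% of all tested genes did.

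**Figure D1:**
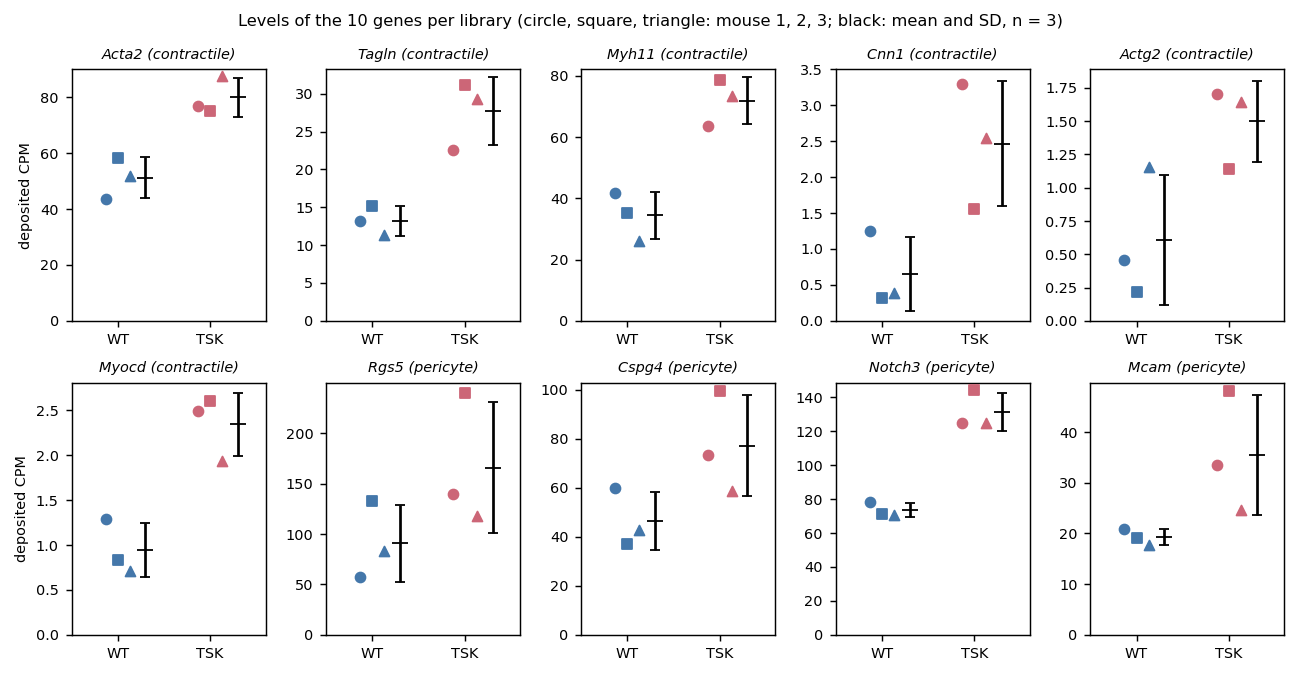
Deposited CPM (vertical axes, from 0) of the 10 genes in 3 WT and 3 TSK libraries. Circles, squares and triangles are mice 1, 2 and 3 of each genotype, and the black bars give the mean and SD (n = 3). For Acta2, Tagln, Myh11, Cnn1, Myocd, Notch3 and Mcam every TSK library lay above every WT library, and for Actg2, Rgs5 and Cspg4 the groups overlapped. After TMM scaling the groups also overlapped for Acta2 and Mcam.

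The 6 contractile genes separated the libraries of the genotypes more often than the 4 pericyte genes did in these mice, a difference that was not tested. On TMM-scaled CPM, 4 of 6 contractile genes and 1 of 4 pericyte genes were higher in every TSK library than in any WT library, where 14.1% of all tested genes were. On the deposited CPM the counts were 5 of 6 and 2 of 4, against 29.1% of all tested genes. TMM scaling lowered the TSK values relative to the WT values, since its factors were smaller in the WT libraries (0.823 to 1.03) than in the TSK libraries (1.06 to 1.13).

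Myh11, whose product slides along actin to shorten the smooth muscle cell, is encoded on chromosome 16 (minus strand, bases 14194535 to 14291372 in mm10, as for all genes here). The 3 WT mice had 41.7, 35.4 and 26.2 CPM, and the 3 TSK mice had 63.7, 78.6 and 73.3 CPM. The lowest TSK library lay above the highest WT library, on this scale and after TMM scaling. The means were 34.4 ± 7.78 and 71.9 ± 7.56 CPM (SD, n = 3), and the log2 fold change was 0.79 (SE 0.16; adjusted p = 0.0366 by edgeR). The call was lost in 5 of the 6 fits that left out 1 library, with edgeR adjusted p-values of 0.0615 without WT 2, 0.117 without WT 3, 0.0622 without TSK 1, 0.0952 without TSK 2 and 0.0837 without TSK 3, while the log2 fold change stayed between 0.65 and 0.90. DESeq2 gave an adjusted p of 0.00101. By DESeq2, 3 contractile genes (Myh11, Tagln and Cnn1) and 1 pericyte gene (Notch3) were called higher in TSK, against 5.5% of all genes that DESeq2 tested.

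Acta2, smooth muscle α-actin, is encoded on chromosome 19 (minus strand, bases 34241090 to 34255590). It is the actin most used as a marker of smooth muscle and of myofibroblasts. WT skin held 43.6, 58.4 and 51.7 CPM, while TSK skin held 77.0, 75.1 and 87.8 CPM. The deposited values did not overlap, but the TMM-scaled values did, with 42.6, 71.0 and 58.4 CPM for WT against 72.6, 67.5 and 77.9 CPM for TSK. Its log2 fold change of 0.34 (SE 0.18) was the smallest of the 10 and did not pass the test (edgeR adjusted p = 0.345). It was 0.19 without WT 1, the library with the lowest value, and 0.53 without WT 2, the WT library with the highest.

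Short reads from most of Acta2 and Myh11 could be told from those of related genes. Of the 50-base windows of the Acta2 transcript, 7 of 2146 also occurred in another gene, all of them in Actg1, the cytoplasmic γ-actin, and in actin pseudogenes. For Myh11 the number was 26 of 7644, with 26 in Myh9 and 16 in Myh10, the non-muscle myosin heavy chains. The longest stretches shared by Acta2 with Actg1 and by Myh11 with Myh9 show where a read of 50 bases had more than 1 possible source. Both are coding, at chr19:34243342-34243397 in exon 8 of the 9 exons of Acta2 and at chr16:14232631-14232695 in exon 13 of the 41 exons of Myh11, written 5′ to 3′ on the minus strand of mm10 with no base marked.
Acta2 and Actg1: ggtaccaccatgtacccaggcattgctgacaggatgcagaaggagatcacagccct
Myh11, Myh9 and Myh10: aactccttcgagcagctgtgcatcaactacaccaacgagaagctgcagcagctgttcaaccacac
No 50-base window of Actg2, Tagln, Cnn1, Rgs5, Cspg4 or Mcam was shared with another gene. Skeletal α-actin, Acta1, stood at 12257 to 18096 CPM in WT and 12129 to 13283 CPM in TSK, and none of the 7 shared windows of Acta2 lay in Acta1. Cardiac α-actin, Actc1, which is also used by developing muscle, fell by 1.77 on the log2 scale (SE 0.34; adjusted p = 0.0304 by edgeR), a call that was lost without WT 2, WT 3 or TSK 3 (adjusted p 0.0674, 0.122 and 0.0934 by edgeR), while Actb and Actg1 had log2 fold changes of 0.35 and 0.26 and did not pass.

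The start of Acta2 was read for CArG boxes, since these sites are where SRF and myocardin are known to act on contractile genes. RefSeq promoter windows of 250 bases before to 50 bases after the gene start (GRCm38.p6) were at hand for 6 of the 10 genes: Acta2, Cnn1, Rgs5, Cspg4, Notch3 and Mcam. A strict CArG box (CC, then 6 bases that are each A or T, then GG, which reads as the same pattern on both strands) was in the window of 0 of the 6 genes and in 1.63% of 32851 windows. These 32851, called all windows here, leave out the windows of 1 chromosome, which holds none of the 6 genes. When 1 C or G was allowed among the 6 inner bases, a choice made after the windows had been read, Acta2 alone among the 6 genes held a match, where 9.98% of all windows did. Its matches are shown in capitals, each with 10 bases on either side, on the minus strand of chromosome 19. Both lie within Acta2 as GENCODE bounds it, since the gene starts further upstream there than in RefSeq.
Acta2, chr19:34255438-34255467, match 84 to 75 bases before the start: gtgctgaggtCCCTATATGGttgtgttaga
Acta2, chr19:34255388-34255417, match 34 to 25 bases before the start: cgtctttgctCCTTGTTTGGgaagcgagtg
TGGGAA, a core sequence recognised by RBPJ, the DNA-binding partner of Notch receptors, was searched on both strands. It was in the window of 1 of the 6 genes, Acta2, where it overlapped the second match above, and in 25.56% of all windows. These matches describe the sequence and say nothing of which factor was bound in skin.

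Tagln, transgelin or SM22, which binds actin filaments in smooth muscle, is encoded on chromosome 9 (minus strand, bases 45929619 to 45936058). The 3 WT mice had 13.2, 15.1 and 11.3 CPM, and the 3 TSK mice had 22.6, 31.2 and 29.3 CPM. Every TSK library lay above every WT library, also after TMM scaling. Its log2 fold change was 0.78 (SE 0.18), close to that of Myh11, but the adjusted p was 0.0589 with edgeR and 0.00703 with DESeq2. Without WT 2 the edgeR adjusted p was 0.0405. In the other fits that left out 1 library Tagln did not pass, with edgeR adjusted p-values from 0.0628 to 0.196. Tagln overlaps an antisense gene, Gm48529, over 3627 bases, and that gene held 23 to 46 counts per library. Tagln also overlaps Pcsk7, on the opposite strand, over 108 bases, and Pcsk7 held 294 to 504 counts per library. The kit marks the strand of the RNA, but whether strand was used in the counting is not given in the sources used here.

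Cnn1, calponin 1, an inhibitor of the myosin motor that is found in mature smooth muscle, is encoded on chromosome 9 (plus strand, bases 22099216 to 22109630). It was scarce, with 22, 6 and 7 counts in the WT mice and 60, 30 and 48 counts in the TSK mice. These counts correspond to 1.25, 0.319 and 0.385 CPM for WT and 3.30, 1.56 and 2.54 CPM for TSK. The groups did not overlap, with the highest WT library just below the lowest TSK library. Its log2 fold change of 1.68 was the largest of the 10, with the widest error but one (SE 0.48; adjusted p = 0.0982 by edgeR, DESeq2 adjusted p = 0.0338). Without WT 1 the log2 fold change was 2.46 and the edgeR adjusted p was 0.0326. In the other fits that left out 1 library Cnn1 did not pass, with edgeR adjusted p-values from 0.0946 to 0.297.

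Actg2, the smooth muscle γ-actin of the gut and other hollow organs, is encoded on chromosome 6 (minus strand, bases 83512905 to 83536265). It was the least counted of the 10, with 8, 4 and 21 counts in the WT mice and 31, 22 and 31 counts in the TSK mice. WT 3, at 1.16 CPM, lay just above TSK 2, so the groups overlapped. The estimated log2 fold change was 1.02 (SE 0.52; adjusted p = 0.316 by edgeR), and it ran from 0.66 without WT 2 to 1.92 without WT 3.

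Myocd, myocardin, the SRF cofactor that drives the smooth muscle programme, is encoded on chromosome 11 (minus strand, bases 65176561 to 65269989). WT skin held 1.29, 0.830 and 0.715 CPM, while TSK skin held 2.49, 2.60 and 1.94 CPM. All TSK libraries lay above all WT libraries on both scales. The log2 fold change was 1.03 (SE 0.29), with an adjusted p of 0.0913 in edgeR and 0.111 in DESeq2.

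**Figure D2:**
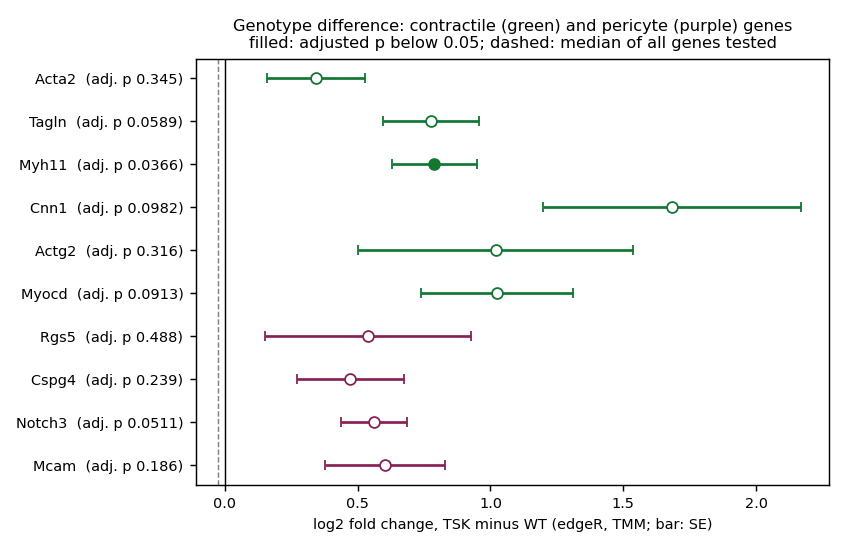
Log2 fold change, TSK minus WT, of the 10 genes (horizontal axis; points with bars are edgeR estimates with SE, n = 3 libraries per genotype), contractile genes in green and pericyte genes in purple. The filled point is Myh11, the only gene with an adjusted p below 0.05. The pericyte estimates lie between 0.47 and 0.60 and the contractile estimates between 0.34 and 1.68. The dashed line is the median of all tested genes, -0.03. Scaled to endothelial genes, Acta2 and the 4 pericyte genes were negative.

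Notch3 came nearest to the threshold among the pericyte genes. A receptor of mural cells for ligands on the neighbouring endothelium, it is encoded on chromosome 17 (minus strand, bases 32120820 to 32166852). The 3 WT mice had 78.1, 71.3 and 70.8 CPM, and the 3 TSK mice had 125, 145 and 125 CPM. The libraries of a genotype lay close together, and the groups stood apart on both scales. Its log2 fold change was 0.56, with the smallest error of the 10 (SE 0.13), and the adjusted p was 0.0511 with edgeR and 0.0031 with DESeq2. An antisense gene, Gm17276, overlaps Notch3 over 21024 bases and held at most 6.75 counts in a library.

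Rgs5, a regulator of G-protein signalling that is widely used to mark pericytes, is encoded on chromosome 1 (plus strand, bases 169655501 to 169695813). WT skin held 57.1, 132 and 83.4 CPM, while TSK skin held 140, 240 and 118 CPM. WT 2 lay above TSK 3, and TSK 2 lay far above the others. The estimated log2 fold change was 0.54 (SE 0.39; adjusted p = 0.488 by edgeR), 0.19 without TSK 2 and 1.02 without WT 2, and none of these fits passed the test.

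Cspg4, the NG2 proteoglycan on the pericyte surface, is encoded on chromosome 9 (plus strand, bases 56865033 to 56899870). It is also found on glial precursors and some hair follicle cells. The 3 WT mice had 59.7, 37.1 and 42.6 CPM, and the 3 TSK mice had 73.3, 99.4 and 58.6 CPM. WT 1 lay just above TSK 3, so the groups overlapped. The log2 fold change was 0.47 (SE 0.20; adjusted p = 0.239 by edgeR) and 0.26 without TSK 2.

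Mcam, CD146, an adhesion molecule that endothelial cells share with pericytes, is encoded on chromosome 9 (plus strand, bases 44134469 to 44142727). WT skin held 20.96, 19.1 and 17.7 CPM, while TSK skin held 33.6, 48.1 and 24.6 CPM. The groups did not overlap on this scale, but after TMM scaling WT 2, at 23.3 CPM, lay above TSK 3, at 21.8 CPM. Its log2 fold change was 0.60 (SE 0.23; adjusted p = 0.186 by edgeR) and 0.33 without TSK 2. The antisense gene Gm10687, with 55.6 to 129 counts per library, overlaps Mcam over 17 bases.

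Among the fits that left out 1 library, the pericyte median was lowest without TSK 2. In that fit the median log2 fold change of the 4 pericyte genes was 0.29, against 0.55 with all libraries, while that of the 6 contractile genes was 0.84, against 0.90. TSK 2 also had the highest summed level of endothelial genes, 896 CPM against 521 to 590 CPM in the other TSK libraries, and of adipocyte genes, 3633 CPM against 615 to 844 CPM. Whether these cell types had a part in the pericyte values was not tested.

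**Figure D3:**
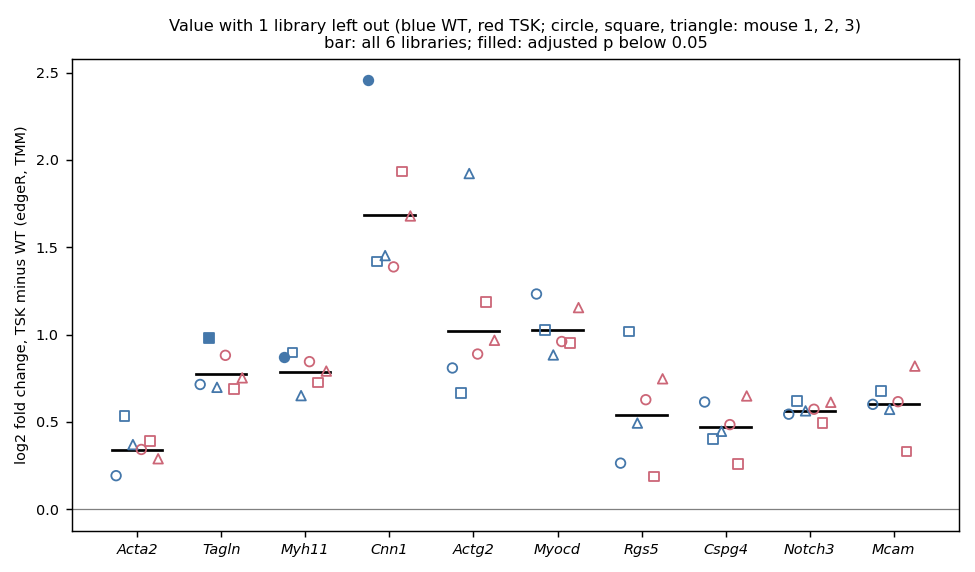
Log2 fold change, TSK minus WT, of each gene (vertical axis; edgeR, TMM) with all 6 libraries (black bars) and with 1 library left out (blue for a WT and red for a TSK library left out; circle, square and triangle for mouse 1, 2 and 3). Filled symbols have an adjusted p below 0.05, which occurs once each for Tagln, Myh11 and Cnn1. All values are above 0, and for Tagln and the 4 pericyte genes the lowest is the fit without TSK 2.

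Between genes, levels were compared only per kilobase of exon (CPM divided by the length of the merged exons). In WT skin the order was Acta2 at 23.3 ± 3.36 CPM per kilobase (SD, n = 3), Rgs5 at 20.02 ± 8.41, Notch3 at 9.07 ± 0.505, Tagln at 6.63 ± 0.968, Mcam at 5.75 ± 0.487, Myh11 at 4.53 ± 1.02 and Cspg4 at 3.89 ± 0.992. Actg2, Cnn1 and Myocd followed at 0.391 ± 0.314, 0.239 ± 0.190 and 0.147 ± 0.0475 CPM per kilobase. Neighbours in this order overlapped in their libraries except at 3 steps, from Rgs5 to Notch3, from Notch3 to Tagln and from Cspg4 to Actg2. In TSK skin Rgs5, at 36.5 ± 14.4 CPM per kilobase, and Acta2, at 36.4 ± 3.12, were on a par, and the order of the other 8 genes was that of WT skin. Neighbours stood apart there at 4 steps, from Acta2 to Notch3, from Myh11 to Cspg4, from Cspg4 to Actg2 and from Cnn1 to Myocd.

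Summed over their members on the deposited CPM scale, both groups of genes were higher in every TSK library than in any WT library. After TMM scaling the contractile sums still did not overlap, at 99.2 to 134 CPM in WT and 161 to 174 CPM in TSK, but the pericyte sums did, at 316 CPM in WT 2 against 289 CPM in TSK 3, with a TSK mean 1.45 times that of WT. The deposited contractile sums were 101, 110 and 91.4 CPM for the WT mice and 171, 190 and 196 CPM for the TSK mice, and the TSK mean was 1.84 times the WT mean. For the pericyte genes, the WT mice gave 216, 260 and 214 CPM and the TSK mice 372, 532 and 326 CPM, with a TSK mean 1.78 times that of WT. Most of the contractile sum was Acta2 and Myh11, so it says little of the scarce genes.

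The ratio of contractile to pericyte sums did not separate the genotypes. WT mice had ratios of 0.470, 0.424 and 0.426 and TSK mice of 0.459, 0.357 and 0.603, so TSK 2 lay below and TSK 3 above all WT libraries. TSK 3 had the highest fibroblast sum, and TSK 2 the highest endothelial sum.

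The summed level of endothelial genes was also higher in every TSK library. The 14 genes of the endothelial list, among them Cdh5, the cadherin of endothelial junctions, and Ptprb, a phosphatase of the vessel lining, ranged in sum from 298 to 371 CPM over the WT mice and from 521 to 896 CPM over the TSK mice, with a TSK mean 2.04 times that of WT. All 14 had a positive log2 fold change with TMM scaling (median 0.78; 0.57 without TSK 2), and 2 of them, Tek and Vwf, named after their values were seen, rose in TSK by the test. DESeq2 called 6 higher, as did edgeR with no low-count filter, a replicate block gave 7 and library totals gave 12, and 12 had an unadjusted p below 0.05 in edgeR. Without WT 3 the number was 0. Cdh5 and Ptprb had log2 fold changes of 0.66 and 0.76 and did not pass. No gene of this list was at 0 in all libraries.

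Per endothelial CPM, neither sum was higher in all TSK libraries. The contractile sum divided by the endothelial sum gave 0.340, 0.297 and 0.291 for the WT mice and 0.289, 0.212 and 0.377 for the TSK mice, which overlapped. The pericyte sum divided by the endothelial sum gave 0.724, 0.700 and 0.684 for the WT mice and 0.630, 0.594 and 0.625 for the TSK mice, so every TSK library lay below every WT library (0.702 ± 0.0202 against 0.616 ± 0.0192, SD, n = 3). These ratios were not tested. Taken gene by gene, each of the 10 overlapped between genotypes in its level per endothelial CPM.

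**Figure D4:**
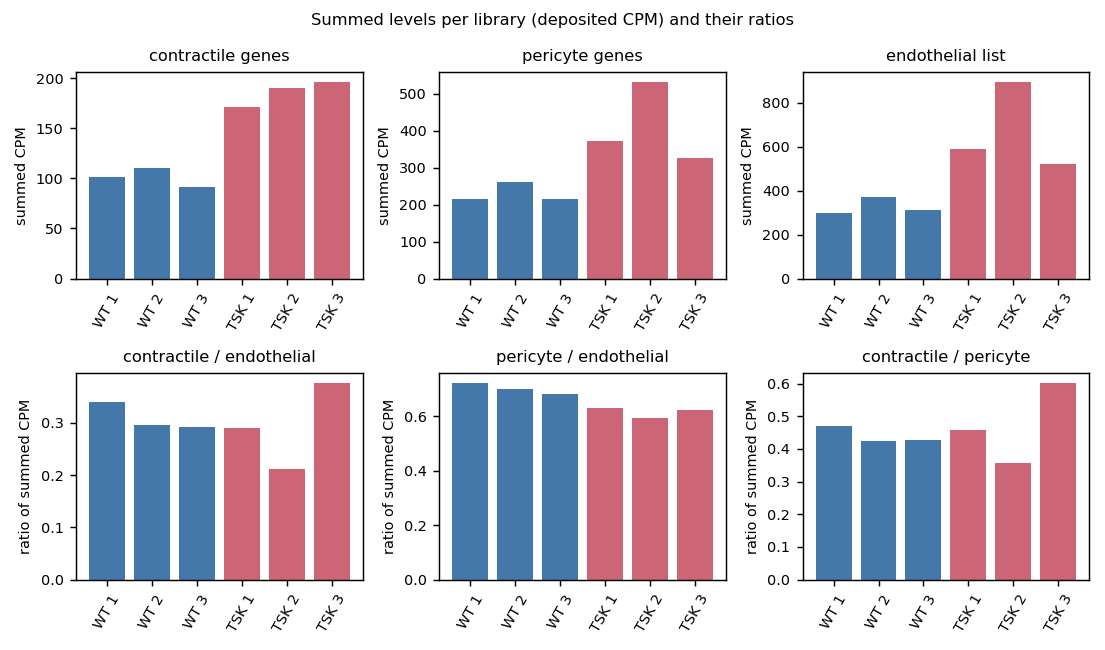
Summed deposited CPM of the 6 contractile genes, the 4 pericyte genes and the 14 endothelial genes in each library (upper row), and ratios of these sums (lower row), with WT in blue and TSK in red. On this scale the sums are higher in all TSK libraries (after TMM scaling the pericyte sums overlap), the contractile to endothelial and contractile to pericyte ratios overlap, and the pericyte to endothelial ratio runs from 0.684 to 0.724 in WT and from 0.594 to 0.630 in TSK.

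When the endothelial counts were used to scale the libraries in edgeR, an alternative chosen after seeing the data, 0 of the 10 genes passed in either direction. The median of all tested genes was then -0.73, so the median of the contractile genes, 0.19, and that of the pericyte genes, -0.16, both lay above it. Under this scaling 20.4% of all tested genes passed, most of them lower in TSK. With library totals in place of TMM, which moved the median of all tested genes to 0.25, 5 contractile genes (Acta2, Tagln, Myh11, Cnn1 and Myocd) and 2 pericyte genes (Notch3 and Mcam) passed as higher, where 8.44% of all tested genes did.

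Other genes of the contractile apparatus had no common direction with TMM scaling. Of 31 tested, 1 rose and 0 fell by edgeR (DESeq2 called 4 higher and 3 lower, and 10 and 5 had an unadjusted p below 0.05 in edgeR). Without WT 1, edgeR called 2 higher and 7 lower, and without WT 3 it called 0. Positive log2 fold changes numbered 13 and the median was -0.10, with a change of sign to 0.19 with library totals and 0.04 without WT 2. Library totals gave 8 higher and 0 lower. With endothelial scaling 1 of the 31 was positive, 13 were called lower and 0 higher, and the median was -0.79. The gene that rose was Mylk, the kinase that switches on smooth muscle myosin by phosphorylating its light chain, with means of 26.6 ± 1.02 CPM for WT and 59.2 ± 6.42 CPM for TSK (SD, n = 3; log2 fold change 0.87; SE 0.13; adjusted p = 0.0148 in edgeR, and 0.0831 without WT 3). The genes with the highest mean CPM in the list, the tropomyosins Tpm2 and Tpm1, had log2 fold changes of -0.62 and -0.58 and did not pass. Both are also abundant in skeletal muscle, whose 15 listed genes had a median of -0.80, including Ttn at -0.74 and Myh4 at -1.09. Of these 15, 0 passed in edgeR, where 9 were lower and 1 higher with p below 0.05 before adjustment, and DESeq2 called 12 lower and 1 higher. Without WT 1, edgeR called 9 of them lower and 1 higher.

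Regulators of the contractile programme other than Myocd gave no calls in edgeR with TMM scaling, either low-count filter and all libraries. Of 8 genes for SRF, its cofactors and their modifiers, 0 passed in edgeR's quasi-likelihood test, 1 was higher at an unadjusted p below 0.05 and 1 passed in DESeq2. Library totals, no low-count filter and leaving out WT 1 each gave 1 higher. The median was 0.07, and -0.62 with endothelial scaling, by which 2 passed as lower. Klf4, a repressor of smooth muscle genes that keratinocytes also use, had a log2 fold change of 0.60 (SE 0.14; adjusted p = 0.0561 by edgeR). Elk4, an SRF partner, was at 0.17 (edgeR adjusted p = 0.491).

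Among other genes used to mark pericytes, 5 of 23 tested rose in TSK and 0 fell, where 2.71% of all tested genes rose. DESeq2 called 13 higher, where 5.5% of all genes it tested rose, library totals gave 16, no low-count filter 11 and a replicate block 10. Without WT 3 the number was 0, without WT 2 it was 2, and without TSK 2 or TSK 3 it was 3. The list had 21 positive log2 fold changes and a median of 0.92. With endothelial scaling the median was 0.26, and 2 genes were higher and 1 lower. Ebf1, a transcription factor, rose, with means of 20.99 ± 1.63 CPM for WT and 76.5 ± 19.6 CPM for TSK (log2 fold change 1.58; adjusted p = 0.00862 in edgeR). Its relative Ebf2 (1.39, adjusted p = 0.0336), the T-box factor Tbx18 (1.20, adjusted p = 0.0202), the gap junction gene Gjc1 (0.88, adjusted p = 0.0342) and the membrane peptidase gene Anpep (0.89, adjusted p = 0.0392) rose as well. Of the 6 fits that left out 1 library, 5 kept the call of Ebf1 and 3 that of Tbx18. The calls of Ebf2 and Anpep were kept in 2 each, and that of Gjc1 in 1. Ebf1, Ebf2 and Anpep are also known from fibroblasts and adipocyte precursors, and the fibroblast and adipocyte lists had 6 of 14 and 3 of 10 genes higher in TSK, with medians of 1.28 and 2.80 (the latter 1.56 without TSK 2). For these 2 cell types DESeq2 called 12 and 7 genes higher, library totals gave 13 and 9, and endothelial scaling 6 and 9. The part of those cells in the pericyte list was not tested. Abcc9, a subunit of potassium channels and the gene with the highest mean CPM of the list, stood at 222 ± 43.3 CPM in WT and 199 ± 26.0 CPM in TSK, with a log2 fold change of -0.46 that did not pass (edgeR adjusted p = 0.308). Without WT 1 it was called lower, at -0.65 (edgeR adjusted p = 0.0486). It is also a channel gene of skeletal muscle.

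The Notch pathway around Notch3 gave no calls in edgeR with TMM scaling, filterByExpr and all libraries. Of 17 ligands, receptors, cofactors and targets, 0 passed in edgeR's quasi-likelihood test, and DESeq2 called 3 higher. In edgeR, library totals gave 5 higher, no filter gave 2, and DESeq2 size factors, a minimum of 1 CPM in 3 libraries and leaving out WT 1 gave 1 each. With endothelial scaling 2 were lower. Before adjustment, 11 were higher and 1 lower in edgeR with p below 0.05. With TMM scaling 15 had a positive log2 fold change and the median was 0.39, which turned to -0.32 with endothelial scaling. The receptors Notch1 and Notch2, with the highest mean CPM of the list, had log2 fold changes of 0.08 (edgeR adjusted p = 0.842) and 0.49 (edgeR adjusted p = 0.0941). The value of Notch3 itself, 0.56, lay above both, a difference that was not tested.

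**Figure D5:**
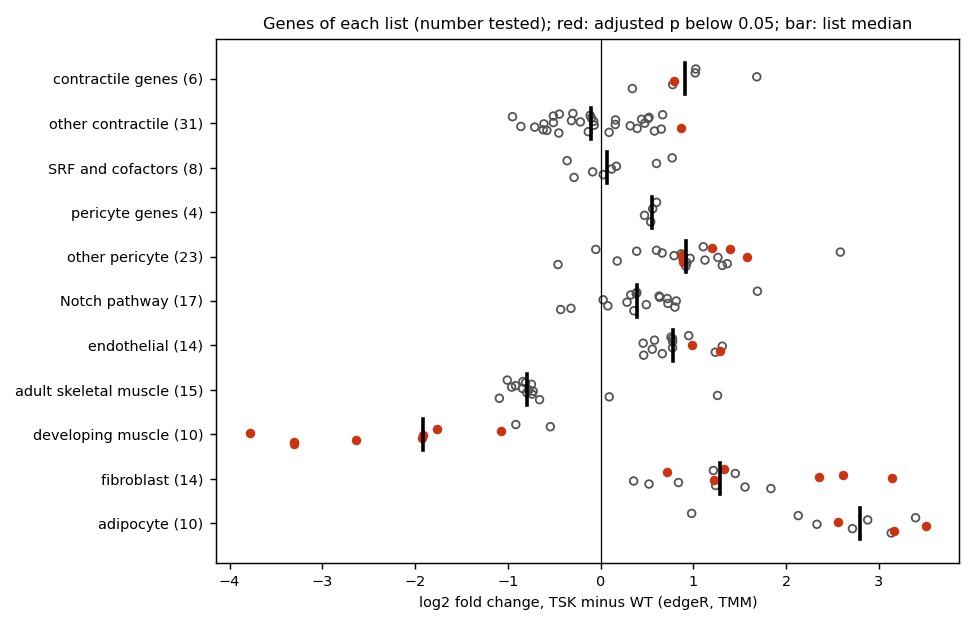
Log2 fold change, TSK minus WT (horizontal axis; edgeR, TMM), of each tested gene in 11 lists, with the number of genes tested beside the name, red points for an adjusted p below 0.05 and black bars for the list median. The medians are 0.90 and 0.55 for the contractile and pericyte genes, 0.92 for other pericyte markers, 0.78 for endothelial genes and -0.10 for other contractile genes.

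Cells other than vascular smooth muscle that use contractile genes were followed by their own markers. The 10 genes of tumour myofibroblasts summed to 644 to 841 CPM in WT and 1367 to 2290 CPM in TSK, and 1 of them, Fn1, the matrix protein fibronectin, rose (log2 fold change 1.76, edgeR adjusted p = 0.0148), while Postn, periostin, was at -0.11. Genes of the dermal papilla and sheath summed to 20.6 to 23.1 CPM in WT and 33.2 to 52.9 CPM in TSK, with 1 of 9 tested genes higher by the test. Hair follicle genes summed to 33.7 to 71.7 CPM in WT and 80.7 to 87.7 CPM in TSK, with 4 of 9 higher. Genes of developing muscle, which uses some smooth muscle genes for a time, summed to 318 to 544 CPM in WT and 101 to 169 CPM in TSK, with 8 of 10 lower. Over all tested genes 2.71% were higher and 0.681% lower. When 1 library was left out, hair follicle genes called higher ranged from 0 to 3 and developing muscle genes called lower from 4 to 8. Schwann cell and melanocyte genes, of interest for Cspg4 and Mcam, summed to 138 to 265 CPM in WT and 250 to 417 CPM in TSK, with 0 of 10 passing in edgeR, 4 higher at an unadjusted p below 0.05 and 1 in DESeq2. The part of these cells in the levels of the 10 genes was not tested.

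The genes most like Myh11 over the 6 libraries were sought among 12016 genes with a mean of at least 5 CPM, by the root mean square difference of their centred log2 CPM. The nearest were Rnf26 at 0.0806, Mark1 at 0.0912 and Tshz2 at 0.105. Tagln was at 0.157, with 19 genes nearer, and Notch3 at 0.210, with 126 nearer. Acta2 was at 0.365, with 1826 genes nearer, further from Myh11 than the pericyte genes Notch3, Mcam and Cspg4 were, and Rgs5 was at 0.533.

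For Rgs5 the nearest were Adgrf5 at 0.145, an adhesion receptor of endothelial cells, Tmem204 at 0.157 and Abca8a at 0.159. In each, as in Rgs5, WT 2 was the highest WT library and TSK 2 the highest TSK library. The pericyte gene nearest to Rgs5 was Mcam, at 0.399 with 236 genes nearer. All these profiles share 6 libraries and their scaling.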

How the data were processed

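Total RNA depleted of ribosomal RNA was made into stranded libraries by the authors and sequenced as single-end reads of 50 bases. They demultiplexed with bcl2fastq 2.19.1.403, aligned with STAR to mm10 and counted genes in Partek Flow 11.0 with Ensembl release 100. The authors deposited estimated counts (per library, 43.3% to 45.4% of values above 0 lay within 0.001 of a whole number) and CPM, counts scaled to a common total per library. The estimated counts were rounded and tested with edgeR 4.0.16 (quasi-likelihood, TMM scaling, filterByExpr; R 4.3.3), with Benjamini-Hochberg adjustment over 19971 genes and a call below 0.05. Only the edgeR test was checked on simulated counts, drawn with a common dispersion for all genes and no difference in scaling between the groups. DESeq2 1.42.0, limma 3.58.1 and other scalings, filters and sets of libraries were alternatives. Libraries of a group differed by a chi-square per degree of freedom of at least 8.02.

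Levels, ratios and overlaps are from deposited CPM unless stated. Counting error is largest for Cnn1, Actg2 and Myocd. Gene ends are from GENCODE M21 (mm10), since the ends in the table lay 1 base further in 99.52% of matched genes. Promoters are from RefSeq, and shared windows from GENCODE transcripts. The 10 genes and the lists were chosen with earlier results of these data known. Named genes were the 10, in the contractile, SRF, pericyte and Notch lists those that passed (4 by lowest p) and the 2 most abundant, in cell type lists the 2 most abundant, checks (actin paralogs, Fbn1 and sex-linked genes), and the 3 profiles nearest to Myh11 and to Rgs5. Abundance here is mean CPM, and the 2 most abundant genes of some cell type lists are not named. Labels give no batch.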

Additional observations from a re-analysis of the deposited data

How the results depend on the processing

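Over 180 alternative values of the 10 genes, 140 kept direction and side of the threshold, 29 moved past it and 6 fell below it. The other 5 turned negative with endothelial scaling and did not pass (Acta2, Rgs5, Cspg4, Notch3 and Mcam). Of 17 planned fits, Myh11 passed in 12, Tagln and Cnn1 in 7 each, Notch3 in 6, Acta2, Myocd and Mcam in 3 each, and Actg2, Rgs5 and Cspg4 in 0.

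Genes higher in TSK numbered 542 in the main comparison, and 1135 with DESeq2, 1771 and 1761 with limma-trend on log2(CPM + 1) and log2(CPM + 0.1), 1685 with library totals, 1040 with no filter, 217 with endothelial scaling and 51 at the strict thresholds. Genes lower numbered 136, and 409 with DESeq2, 100 and 99 with limma-trend, 93 with library totals, 347 with no filter, 3853 with endothelial scaling and 7 at the strict thresholds. Leaving out 1 library gave 45 to 713 higher and 15 to 547 lower, and without WT 3 only 60 genes passed. Without WT 3, calls in the further lists fell to 0 endothelial, 0 adipocyte, 0 hair follicle, 0 tumour myofibroblast and 2 fibroblast genes higher and 4 developing muscle genes lower. Over all 6 libraries left out in turn, these ranged from 0 to 3, 0 to 7, 0 to 3, 0 to 1, 2 to 5 and 4 to 8.

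Contractile genes called numbered 1, and 3 with DESeq2, no filter or a replicate block, 5 with limma-trend (either offset) or library totals, and 0 at the strict thresholds or with endothelial scaling. Leaving out 1 library gave 0 to 2. Pericyte genes called numbered 0, and 1 with DESeq2, no filter or a minimum of 1 CPM in 3 libraries, 2 with limma-trend or library totals, and 0 to 0 without 1 library. Beside these stand all tested genes called higher, 542 of 19971 in the main comparison, 1135 of 20629 with DESeq2 and 1040 of 34809 with no filter. Out of 19971 genes, a replicate block gave 665, limma-trend 1771 and 1761, and library totals 1685. The minimum of 1 CPM gave 548 of 17701.

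The contractile median log2 fold change of 0.90 became 1.17 with log2(CPM + 0.1), 1.18 with library totals and 0.19 with endothelial scaling, and 0.79 to 0.94 without 1 library. The pericyte median of 0.55 became 0.81 and 0.83 with log2(CPM + 1) and log2(CPM + 0.1), 0.85 with library totals and -0.16 with endothelial scaling, and 0.29 to 0.70 without 1 library. The larger values with CPM and library totals come with a median of all genes of 0.20 to 0.25, against -0.03 in the main comparison; the cause of the other changes was not tested. Higher calls were 79.9% of all calls in the main comparison, 94.7% to 94.8% on those scales and 5.33% with endothelial scaling.

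Same-numbered mice did not deviate together (correlations 0.0112, 0.167 and -0.0938). Paired mice need not deviate together, so these values cannot say whether the numbers pair them, and the labels give no pairing. The replicate block gave 665 genes higher and 129 lower, with 3 of the 10 genes called. Cnn1, Actg2 and Myocd rest on counts of 4 to 60 per library.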
